A study of Mus musculus with 36 samples.

Results

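The collagen chain genes are the genes whose platform symbol is Col, a number, a and a number. They were taken from the deposited value table as every probe set annotated to a single gene with such a symbol, whatever its signal. This gave 58 probe sets of 36 genes, out of 12393 genes that had a probe set of their own, and 24 of the 36 passed a filter on low signal that 7436 of all genes passed. The cells were mouse embryonic fibroblasts (MEFs), cultured cells of the embryo's connective tissue, of 2 genotypes: PKBa-/- cells, which lack the protein kinase PKB alpha encoded by Akt1, and wild type cells. Per the labels they came from 13.5-day embryos of heterozygous intercrosses, with the head and visceral organs removed, were kept in DMEM with foetal calf serum and were used between passages 15 and 20, so both genotypes share long culture. Each genotype was measured at the times 0, 2, 6, 24 and 48, given without a unit, on 18 Affymetrix arrays: 4 at each time except time 2, which had 2. The series title speaks of cells treated with DMEM, the extraction protocol also describes a medium that induces fat cells, and no label ties either medium to an array. The sources used here give neither the number of embryos or cell lines behind each genotype nor whether replicates were separate cultures, so that p-values measure the spread between these samples, which may be technical.

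Collagens are secreted proteins whose chains wind around each other into a helix and then assemble outside the cell. The fibrillar collagens form the fibres of connective tissue, with types I and III as the bulk of it in fibroblasts, type V at the core of those fibres and types II and XI mainly in cartilage. Type IV forms the network of basement membranes, type VI forms beaded filaments around cells, type VII anchors basement membranes to the tissue below, type VIII forms a short chain network and the FACIT collagens sit on the surface of fibrils. Before and after secretion the chains are hydroxylated, folded, trimmed and crosslinked by dedicated enzymes, and cells bind and take up collagen through their own receptors.

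Values are array signals on a linear scale, which do not allow one gene's level to be set against another's. A difference is PKBa-/- minus wild type on the scale log2(signal + 32) ± SE, from limma fitted to 18 pair averages, with p adjusted by Benjamini and Hochberg over the 7436 genes; a gene passed where the adjusted p was under 0.05. Akt1 had signals of 43.8 to 103 on the PKBa-/- arrays and 843 to 1395 on the wild type arrays, a difference of -3.45 ± 0.10 (adjusted p = 3.1e-11), in the direction the labels give, although whether its probe set lies in the deleted part is not given. All PKBa-/- arrays of Akt1 lay under the filter limit, a signal of about 123. It thus passed the filter through wild type cells and had to differ. Array medians ran from 134 to 145. The arrays of replicates 1 and 2 of a group, and those of replicates 3 and 4, resembled each other more (correlation 0.982 to 0.997) than they resembled the other pair (0.942 to 0.989), so each pair was averaged first, and values within each replicate set are given where they differ. Replicates 3 and 4 lack time 2, so averaged differences within them leave that time out. All 9 fibroblast markers that were measured passed the filter, and their summed signal was 25730 to 31178 in PKBa-/- arrays and 24199 to 32875 in wild type arrays. Within that sum 4 of the 9 markers were higher in PKBa-/- cells, against 26.5% of all genes tested: Thy1 by 2.43, S100a4 by 1.69, Pdgfrb by 1.32 and Vim by 0.56. Another 3 were lower, against 20.9% of all genes tested: Dcn at -3.15, Lum at -1.45 and Fn1 at -0.26. Pdgfra and Fap did not pass. Other marker sums moved with the genotype: the tenocyte sum was 1528 to 5054 in PKBa-/- and 62.6 to 108 in wild type, nearly all of it from 1 of 2 genes, Tnmd, while Scx stayed under the filter, and the mesothelial sum over 3 genes was 119 to 177 in PKBa-/- and 4249 to 7230 in wild type. The endothelial sum over 5 genes was 312 to 529 in PKBa-/- and 541 to 1717 in wild type and rested on Kdr (-1.76, adjusted p = 3.4e-08), with Pecam1, Cdh5, Tek and Tie1 under the filter. The osteoblast sum over 4 genes was 238 to 341 in PKBa-/- and 339 to 668 in wild type, where Alpl was lower in PKBa-/- cells (-1.08) and Sp7 did not pass. All PKBa-/- arrays of Alpl, at 60.2 to 97.9, lay under the filter limit, so that it passed the filter through wild type cells and had to differ. The adipocyte sum over 4 genes was 643 to 1674 in PKBa-/- and 2205 to 5532 in wild type and rested on Lpl, while Adipoq, Fabp4 and Pparg stayed under the filter. The part of such cells in the collagen differences was not tested.

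The type IV genes are shown first by sequence because they lie in head-to-head pairs, and several of the results below concern both genes of a pair. Col4a1 and Col4a2 lie on chromosome 8 on opposite strands and overlap by 85 bases at their starts, and Col4a5 and Col4a6 lie on the X chromosome on opposite strands, 1274 bases apart. The 250 bases before the start set for the RefSeq promoter window of each (build GRCm38.p6, read 5′ to 3′ on the gene's own strand) are printed with each CCAAT or its reverse complement ATTGG in capitals. The overlap and the gap above use RefSeq gene positions, by which Col4a1 starts at 11312889, Col4a5 at 141475370 and Col4a6 at 141474095. The printed windows of these genes run past those positions into the gene, and that of Col4a2 does not. The CCAAT motif is a common promoter element.
Col4a1, chr8:11312827-11313076, minus strand: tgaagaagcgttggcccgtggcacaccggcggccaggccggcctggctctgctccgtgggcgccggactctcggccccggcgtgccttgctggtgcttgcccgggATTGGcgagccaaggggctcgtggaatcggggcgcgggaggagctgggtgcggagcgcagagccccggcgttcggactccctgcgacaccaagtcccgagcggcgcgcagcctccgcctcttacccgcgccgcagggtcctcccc
Col4a2, chr8:11312555-11312804, plus strand: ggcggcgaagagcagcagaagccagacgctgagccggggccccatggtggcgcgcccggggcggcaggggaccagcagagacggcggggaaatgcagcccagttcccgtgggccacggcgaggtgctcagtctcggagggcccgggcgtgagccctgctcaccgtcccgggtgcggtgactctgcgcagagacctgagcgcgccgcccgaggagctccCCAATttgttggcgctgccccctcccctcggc
Col4a5, chrX:141475169-141475418, plus strand: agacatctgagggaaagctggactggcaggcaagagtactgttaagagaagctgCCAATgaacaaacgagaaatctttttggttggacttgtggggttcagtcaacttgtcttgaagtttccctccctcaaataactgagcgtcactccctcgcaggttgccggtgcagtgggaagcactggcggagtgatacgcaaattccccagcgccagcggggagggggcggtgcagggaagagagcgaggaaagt
Col4a6, chrX:141474077-141474326, minus strand: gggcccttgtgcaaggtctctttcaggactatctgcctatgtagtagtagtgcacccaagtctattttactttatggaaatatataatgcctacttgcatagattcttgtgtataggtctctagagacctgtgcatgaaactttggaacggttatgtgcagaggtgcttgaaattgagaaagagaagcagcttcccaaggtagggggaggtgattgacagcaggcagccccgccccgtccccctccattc
The letters occurred once in the windows of Col4a1 (145 bases before the start set for its window), Col4a2 (32 bases) and Col4a5 (196 bases), and did not occur in that of Col4a6. The first pair is rich in G and C, at 74.4% and 73.6%, against 54% for Col4a5 and 47.6% for Col4a6. Over windows of 250 bases before to 50 bases after the start, CCAAT on either strand was found in 11 of the 27 collagen genes with a window (40.7%) and in 38% of 27025 genes. The GC box letters GGGCGG or CCGCCC were found in 16 of the 27 (59.3%) and in 35.9% of all genes, and TATAAA or TTTATA in 5 (18.5%) and 14.2%. These matches describe the letters only.

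Averaged over the 5 times, 18 of the 24 tested collagen genes passed, where 47.4% of all genes tested did: 13 were higher in PKBa-/- cells, against 26.5% of all genes, and 5 were lower, against 20.9%. The higher ones lay in the fibrillar class (6 of 8 tested), type VI (3 of 3), type VII (1 of 1), type VIII (1 of 1 tested) and the FACIT class (2 of 4). The lower ones were 3 of the 4 tested type IV genes, Col11a1 among the fibrillar genes and Col18a1 among the multiplexins. The median difference was 0.26 over the collagen genes and 0.03 over all genes tested. In bulk samples a larger share of cells that express a gene and more RNA per cell cannot be told apart. On 15 of the 24 the estimate was above 0 at each of the 5 times, on 5 it was below 0 at each, and Col4a1, Col5a2, Col12a1 and Col15a1 had both signs. With the 18 arrays of a genotype taken singly, 8 collagen genes did not overlap between the genotypes (5.80% of all genes tested): 6 had every PKBa-/- array above every wild type array, against 2.64% of all genes (Col5a1, Col5a3, Col6a2, Col6a3, Col7a1 and Col8a1), and 2 had every PKBa-/- array below, against 3.16% (Col4a5 and Col4a6). All wild type arrays of Col5a3 lay below the filter limit, a signal of about 123, so that it passed the filter through PKBa-/- cells and had to differ. Without it 17 of 23 passed, 12 of them higher, with 5 of 7 fibrillar genes higher and 5 genes with every PKBa-/- array above.

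**Figure D1:**
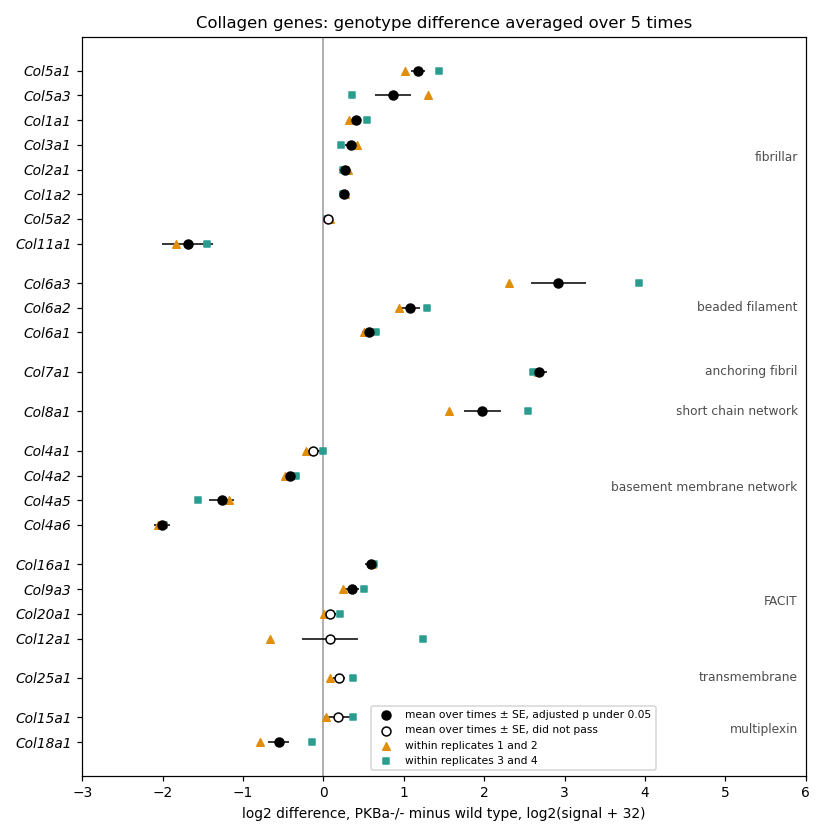
Difference between PKBa-/- and wild type averaged over the 5 times for the 24 tested collagen genes, by class, on the log2(signal + 32) scale; circles are the estimates with SE (filled where adjusted p was under 0.05), triangles the values within replicates 1 and 2, and squares those within replicates 3 and 4. Col6a3, Col7a1 and Col8a1 lie farthest to the right and Col4a6, Col11a1 and Col4a5 farthest to the left, and Col12a1 is the gene whose replicate sets lie on opposite sides of 0. The values within replicates 3 and 4 leave out time 2, which those replicates lack.

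The 3 type VI genes, whose chains build the beaded filaments around fibroblasts and muscle, all passed as higher in PKBa-/- cells. Col6a3, the long chain of the filament, had signals of 2953 to 6312 with a median of 5128 in PKBa-/- arrays, and 153 to 1608 with a median of 541 in wild type arrays. The groups did not overlap, and the difference was 2.92 ± 0.34, or 7.59-fold (adjusted p = 2e-05). Col6a2 ran from 6008 to 11987 (median 8070) in PKBa-/- arrays and from 2754 to 5553 (median 4185) in wild type arrays, again without overlap, for a difference of 1.07 ± 0.13 (adjusted p = 2.3e-05). Col6a1 had 4287 to 7598 (median 5822) in PKBa-/- arrays and 3139 to 5240 (median 3943) in wild type arrays, which overlapped, for a difference of 0.57 ± 0.09 (adjusted p = 2.5e-04). Col6a1 and Col6a2 are neighbours on the same strand of chromosome 10, 85161 bases apart, and Col6a3 lies on chromosome 1. At time 48 the differences were 3.52 ± 0.69 for Col6a3, 1.43 ± 0.26 for Col6a2 and 0.77 ± 0.18 for Col6a1, and the 3 genes passed. At time 0 Col6a3 and Col6a2 passed; without replicate 3 of PKBa-/- at time 0 the adjusted p of Col6a2 there was 0.06, the highest over the alternatives tried, which went down to 7.5e-08.

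Col7a1, the only gene of the anchoring fibril collagen, ran from 537 to 3157 (median 1797) in PKBa-/- arrays and from 149 to 372 (median 201) in wild type arrays. Every PKBa-/- array lay above every wild type array, and the averaged difference was 2.68 ± 0.10, or 6.41-fold (adjusted p = 6.4e-10). In the human, loss of this collagen blisters the skin. Its difference passed at each time and was 3.22 ± 0.21 at time 0, 3.05 ± 0.30 at time 2, 3.24 ± 0.21 at time 6, 2.44 ± 0.21 at time 24 and 1.46 ± 0.21 at time 48. Col8a1, a chain of the network collagen of vessel walls and of a membrane of the cornea, had 911 to 2166 (median 1515) in PKBa-/- arrays and 146 to 666 (median 382) in wild type arrays. The ranges did not overlap and the difference was 1.98 ± 0.23, or 3.94-fold (adjusted p = 2.3e-05). Time 2 rests on 1 pair of arrays per genotype, replicates 1 and 2, and its spread was taken to be like that of the other groups. Beside Col7a1, Col5a1 and Col4a6 passed there, 3 collagen genes in all against 5.82% of all genes tested.

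Of the 8 fibrillar genes tested, 6 (5 of 7 without Col5a3) were higher in PKBa-/- cells, Col11a1 was lower and Col5a2 did not pass. Col1a1 and Col1a2 encode the chains of type I collagen. Col1a1 had 10449 to 13494 (median 12333) in PKBa-/- arrays and 6756 to 12028 (median 9367) in wild type arrays, which overlapped, and the difference was 0.41 ± 0.07 (adjusted p = 3.5e-04). Col1a2 ran from 15651 to 18680 (median 17348) in PKBa-/- arrays and from 12484 to 16295 (median 14496) in wild type arrays, a difference of 0.26 ± 0.05 (adjusted p = 6e-04). Col3a1, the chain of the finer type III fibres, had 9155 to 11427 (median 9895) in PKBa-/- arrays and 6118 to 9317 (median 8170) in wild type arrays, and differed by 0.34 ± 0.07 (adjusted p = 0.0014). Signals of this size lie toward the upper end of the table, whose highest value is 19337, and whether such probe sets still respond in proportion to the RNA was not tested.

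The type V chains, which start fibrils and limit their width, did not move alike. Col5a1 had 5810 to 8309 (median 7733) in PKBa-/- arrays and 2250 to 4317 (median 3113) in wild type arrays, so that the groups lay apart, and differed by 1.18 ± 0.09, or 2.26-fold (adjusted p = 3.7e-07). It passed at each of the 5 times, with differences of 0.95 ± 0.25 to 1.30 ± 0.18; as the mean of its probe sets, the difference at time 0 was 0.75 and did not pass (adjusted p = 0.064, against 1.4e-10 to 0.064 over the alternatives). Col5a2 had 5127 to 6911 (median 6428) in PKBa-/- arrays and 4830 to 7177 (median 6033) in wild type arrays, which largely overlapped, and its averaged difference of 0.06 ± 0.05 did not pass (adjusted p = 0.39). Col5a3, a less widespread chain, had 101 to 601 (median 184) in PKBa-/- arrays and 69 to 99.7 (median 84.7) in wild type arrays; the wild type values lie below the filter limit of about 123. Its difference of 0.87 ± 0.23 passed (adjusted p = 0.0072), but it was 1.30 within replicates 1 and 2, against 0.36 within replicates 3 and 4, and the adjusted p was 0.054 with a random block for replicate set (2.3e-20 to 0.054 over the alternatives).

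Col2a1 and Col11a1 encode chains of cartilage fibrils. Col11a1 had 65.4 to 238 (median 122) in PKBa-/- arrays and 171 to 1082 (median 449) in wild type arrays, and was lower by -1.69 ± 0.32 on the log2 scale (adjusted p = 8.5e-04). The overlap of the groups came from replicate sets: within replicates 1 and 2 the values were 115 to 238 in PKBa-/- and 424 to 1082 in wild type, and within replicates 3 and 4 they were 65.4 to 89.3 in PKBa-/- and 171 to 407 in wild type. Col2a1 had 193 to 314 (median 224) in PKBa-/- arrays and 136 to 232 (median 176) in wild type arrays; its difference of 0.27 ± 0.08 passed (adjusted p = 0.012) and was lost with the random block for replicate set (adjusted p = 0.24; 2e-06 to 0.24 over the alternatives). Of the other cartilage markers, Sox9, the transcription factor of cartilage cells, passed the filter, and Acan, Comp, Matn1, Matn3 and Hapln1 did not. Sox9 had 191 to 468 (median 263) in PKBa-/- arrays and 79.9 to 145 (median 119) in wild type arrays, a difference of 1.03 ± 0.09 (adjusted p = 1.1e-06) that passed at each of the 5 times. Its wild type mean of 117 lay under the filter limit of about 123. Sox9 thus passed the filter through PKBa-/- cells and had to be higher there. Its part in the differences of Col2a1 and Col9a3 was not tested. The chondrocyte sum over the 6 genes was 434 to 734 in PKBa-/- arrays and 324 to 411 in wild type arrays.

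Of the 4 basement membrane genes tested, Col4a2, Col4a5 and Col4a6 were lower in PKBa-/- cells and Col4a1 did not pass. Col4a6 had 95 to 189.5 (median 134) in PKBa-/- arrays and 426 to 857 (median 653) in wild type arrays. The arrays did not overlap, and the difference was -2.01 ± 0.10 (adjusted p = 7.4e-09), with values of -2.05 and -1.98 within the replicate sets. It passed at all 5 times, with differences between -1.91 ± 0.20 and -2.33 ± 0.20. Col4a5, its partner on the X chromosome and the gene altered in most families with human Alport syndrome, had 157 to 823 (median 565) in PKBa-/- arrays and 892 to 1784 (median 1087) in wild type arrays, also without overlap, for a difference of -1.27 ± 0.15 (adjusted p = 2.9e-05). Col4a2 had 846 to 2061 (median 1515) in PKBa-/- arrays and 1516 to 2347 (median 2061) in wild type arrays, and differed by -0.42 ± 0.06 (adjusted p = 7.6e-05). Col4a1, which encodes the partner chain of Col4a2 in the common type IV molecule, had 2076 to 5124 (median 3742) in PKBa-/- arrays and 2631 to 5232 (median 3919) in wild type arrays, and its difference of -0.13 ± 0.10 did not pass (adjusted p = 0.31). The other Col4a1 probe set, tested by itself in limma, did pass as lower in PKBa-/- cells (-0.24 ± 0.06, adjusted p = 0.0054).

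**Figure D2:**
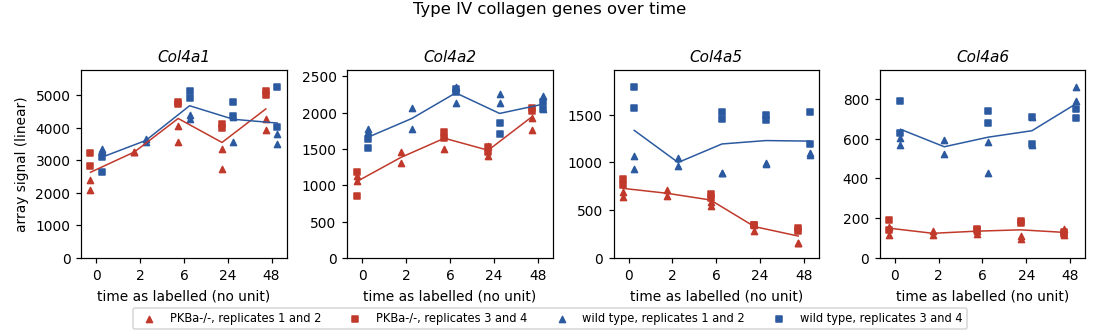
Array signals (linear scale) of the 4 tested type IV genes at the labelled times, which are evenly spaced on the axis and have no unit; red is PKBa-/- and blue wild type, triangles are replicates 1 and 2, squares replicates 3 and 4, and lines join group means. Col4a1 overlaps between genotypes, Col4a2 of PKBa-/- reaches the wild type range at time 48, Col4a5 of PKBa-/- falls away after time 6, and Col4a6 of PKBa-/- stays between 95 and 189.5.

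Of the FACIT genes, Col16a1 had 812 to 1208 (median 1022) in PKBa-/- arrays and 370 to 1032 (median 745) in wild type arrays, and differed by 0.59 ± 0.07 (adjusted p = 2e-05). Its difference was 0.01 ± 0.14 at time 0 and 1.29 ± 0.14 at time 48. Col9a3, a chain of cartilage collagen IX, had 143 to 238 (median 181) in PKBa-/- arrays and 119 to 171 (median 132) in wild type arrays, a difference of 0.35 ± 0.09 (adjusted p = 0.0052; 0.052 with the random block for replicate set, 2.7e-08 to 0.052 over the alternatives). Col20a1 had 152 to 267 (median 205) in PKBa-/- and 172 to 220 (median 183) in wild type arrays and did not pass (0.09 ± 0.07). Col12a1, found on the fibrils of tendon and other dense connective tissue, had 317 to 790 (median 634) in PKBa-/- arrays and 136 to 1536 (median 435) in wild type arrays, and its averaged difference was 0.08 ± 0.35 (adjusted p = 0.87). That average hid opposite values, -0.66 within replicates 1 and 2 and 1.24 within replicates 3 and 4. Col18a1, the precursor of endostatin, had 151 to 232 (median 189) in PKBa-/- arrays and 173 to 453 (median 276) in wild type arrays and was lower by -0.56 ± 0.13 (adjusted p = 0.0038), with -0.79 and -0.14 within the replicate sets. Its relative Col15a1 had 115 to 316 (median 165) in PKBa-/- arrays and 107 to 393 (median 129) in wild type arrays, and did not pass (0.18 ± 0.18). The transmembrane gene Col25a1 had 191 to 316 (median 233) in PKBa-/- arrays and 168 to 247 (median 200) in wild type arrays and did not pass (0.19 ± 0.08).

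The 12 collagen genes under the filter were Col4a3 and Col4a4 of type IV, Col11a2, Col10a1, the FACIT genes Col9a1, Col9a2, Col14a1, Col19a1 and Col22a1, the transmembrane genes Col13a1 and Col17a1, and Col26a1. Their group means lay between 15.2 and 129, and no test was made on them. Col4a3 and Col4a4 are another head-to-head pair, on chromosome 1, and their chains join that of Col4a5 in the kidney filter. Col4a3 had medians of 84.9 in PKBa-/- arrays and 83.4 in wild type arrays, and Col4a4 medians of 38 in PKBa-/- and 37.1 in wild type. Other probe sets existed for 19 of the 36 genes. Of these 22 other probe sets 12 passed the filter by themselves, and 11 of the 12 had the same sign of the averaged difference as the brightest one; none had the opposite sign with both past the threshold.

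The number of collagen genes past the threshold differed between the times. At time 0, 7 of 24 passed (14.9% of all genes), 5 higher (6.48%) and 2 lower (8.42%), and at time 48, 14 of 24 passed (23.3%), 12 higher (12.4%) and 2 lower (10.9%). Between them, 9 passed at time 6 (16.6%) and 10 at time 24 (20.5%). Added at time 48 were mainly fibrillar genes: 6 of the 8 tested were higher there, whereas only Col5a1 had passed at time 0. The 6 included Col1a1 at 0.71 ± 0.14, Col1a2 at 0.33 ± 0.10, Col5a2 at 0.37 ± 0.11 and Col5a3 at 1.50 ± 0.46. The counts at time 48 thus hold Col5a3, which passed the filter through PKBa-/- cells and had to differ. Its PKBa-/- arrays at time 48 read 577 and 601 in replicates 1 and 2, and 149 and 157 in replicates 3 and 4. Another of the 6 was Col2a1, at 0.47. That call ended when any of 12 of the 36 arrays was left out (limma, adjusted p of 0.019 to 0.13). A gene that passed at one time and not at another is not thereby shown to differ between times. The changes from time 0 were compared between the genotypes directly, and 2 of the 24 passed the F test over the 4 later times (1.75% of all genes): Col16a1 (adjusted p = 0.018) and Col7a1 (adjusted p = 0.024). With only the arrays of time 48 in the fit, 9 of 24 passed at that time, a count given without the share of all genes in that fit. Col1a2, Col2a1, Col5a2, Col5a3 and Col6a1 no longer passed (adjusted p of 0.055 to 0.16). Over the alternatives tried these adjusted p ran from 4.1e-18 for Col5a3 to 0.22 for Col5a2.

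**Figure D3:**
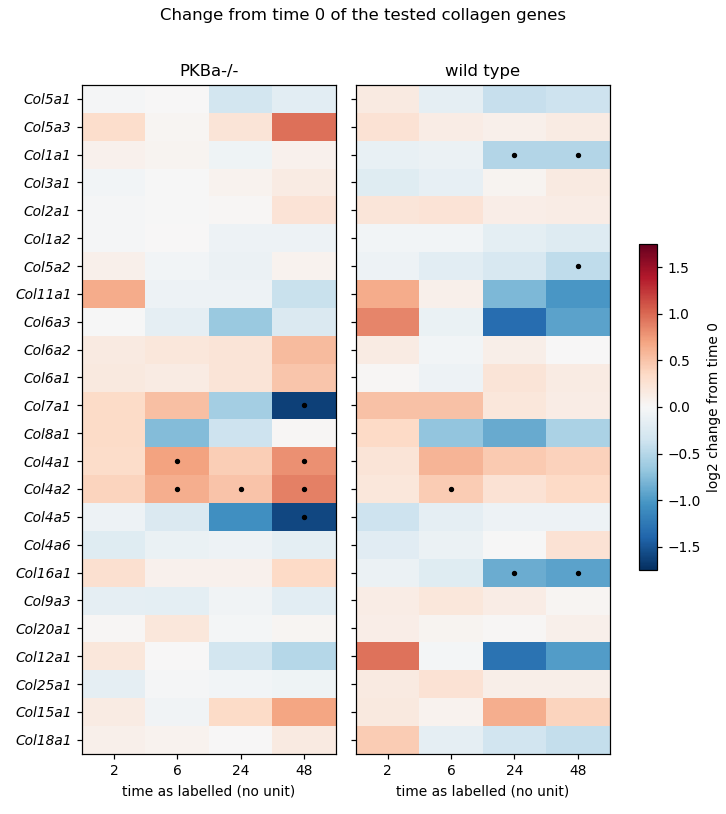
Change from time 0 of the 24 tested collagen genes at the labelled times 2, 6, 24 and 48 in PKBa-/- and in wild type cells, as colour on the log2(signal + 32) scale; a black dot marks an adjusted p under 0.05. In PKBa-/- the dots lie on Col4a1, Col4a2, Col4a5 and Col7a1, and in wild type on Col1a1, Col5a2, Col4a2 and Col16a1.

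Over time, PKBa-/- cells gained the Col4a1 and Col4a2 pair and lost Col7a1 and Col4a5. At time 48, 4 of 24 collagen genes had changed from time 0 in PKBa-/- cells (7.42% of all genes), 2 upward (3.07%) and 2 downward (4.36%). These counts rest on the brightest probe set of each gene. The other Col3a1 probe set, tested by itself in limma, rose by 0.96 in PKBa-/- cells at time 48 (adjusted p = 0.006). The brightest Col3a1 probe set changed by 0.14 and did not pass. Col4a2 in PKBa-/- cells read 1124, 1052, 1179 and 846 at time 0 and 1927, 1766, 2061 and 2022 at time 48, without overlap, a change of 0.88 ± 0.12 (adjusted p = 7.4e-04). Col4a2 had already passed at time 6 (0.64 ± 0.12) and time 24 (0.49 ± 0.12). Col4a1 in PKBa-/- cells read 2394, 2076, 3212 and 2832 at time 0 and 3922, 4257, 4985 and 5124 at time 48, a change of 0.80 ± 0.20 (adjusted p = 0.029), and it passed at time 6 as well (0.70 ± 0.20). At time 6, 2 collagen genes passed in PKBa-/- (18.4% of all genes), and at time 24, 1 (6.15%). In wild type cells Col4a2 was the collagen gene that passed at time 6 (12.0% of all genes), by 0.45 ± 0.12 (adjusted p = 0.03), with 1728, 1771, 1516 and 1632 at time 0 and 2347, 2138, 2322 and 2279 at time 6. Wild type Col4a1 had estimates of 0.59 ± 0.20 at time 6 and 0.41 ± 0.20 at time 48, which did not pass (adjusted p of 0.077 and 0.28). The changes at time 48 did not differ between the genotypes past the threshold, by 0.53 ± 0.17 for Col4a2 (adjusted p = 0.2) and 0.39 ± 0.28 for Col4a1 (adjusted p = 0.71).

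Col4a5 in PKBa-/- cells read 687, 638, 823 and 765 at time 0, averaged 677 at time 2 and 606 at time 6, read 282, 340, 348 and 344 at time 24, and 157, 157, 285 and 318 at time 48. Every array of times 24 and 48 lay below every earlier one. The change at time 48 was -1.59 ± 0.31 (adjusted p = 0.009), and that at time 24, -1.07 ± 0.31, missed the threshold (adjusted p = 0.065). In wild type cells Col4a5 read 927, 1063, 1564 and 1784 at time 0 and 1075, 1098, 1190 and 1526 at time 48, which overlap (-0.09 ± 0.31). The difference between those changes was -1.50 ± 0.44 and did not pass (adjusted p = 0.17). Its neighbour Col4a6 stayed low in PKBa-/- cells, with means of 150 ± 31 at time 0 and 128 ± 14 at time 48 (SD, n = 4 each). No change of Col4a6 over time passed in either genotype, and the courses of the 2 genes of a pair were not tested against each other.

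Col7a1 in PKBa-/- cells read 2125, 1741, 1853 and 2111 at time 0, 2546 and 2406 at time 2, 3157, 2945, 2662 and 2585 at time 6, 1401, 1311, 1105 and 1337 at time 24, and 630, 634, 537 and 625 at time 48. The arrays of time 48 lay below all others. The change at time 48 was -1.64 ± 0.21 (adjusted p = 5.9e-04), and the estimate at time 6, 0.53 ± 0.21, did not pass (adjusted p = 0.11). In wild type cells Col7a1 read 149, 175, 224 and 178 at time 0 and 181, 181, 180 and 273 at time 48, a change of 0.13 ± 0.21 (adjusted p = 0.77). The changes at time 48 differed between the genotypes by -1.77 ± 0.30 (adjusted p = 0.012), and 2 collagen genes passed that test (1.14% of all genes), Col7a1 and Col16a1. At time 48 PKBa-/- cells were still above wild type cells in every array.

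In wild type cells the collagen genes that passed at times 24 and 48 were lower than at time 0. At time 24, 2 of 24 passed (5.68% of all genes, 2.22% higher and 3.46% lower), and at time 48, 3 (6.05% of all genes, 2.15% higher and 3.90% lower): Col16a1, Col1a1 and Col5a2. Col16a1 in wild type cells read 847, 884, 889 and 1032 at time 0 and 509, 536, 447 and 370 at time 48, a change of -0.93 ± 0.14 (adjusted p = 0.003), which was -0.87 ± 0.14 at time 24. In PKBa-/- cells it read 1050, 932, 893 and 812 at time 0 and 1208, 1182, 1172 and 1146 at time 48, a change of 0.35 ± 0.14 that did not pass (adjusted p = 0.17). These changes differed between the genotypes by 1.28 ± 0.20 (adjusted p = 0.0081), and at time 0 the genotypes overlapped. Col1a1 in wild type cells read 12028, 12000, 9813 and 10645 at time 0 and 9117, 8274, 6983 and 6936 at time 48, a change of -0.51 ± 0.14 (adjusted p = 0.049). That call ended when any of 20 of the 36 arrays was left out (adjusted p of 0.029 to 0.081), and over all alternatives its adjusted p ran from 4.2e-05 to 0.31. It also rests on the brightest probe set: the other Col1a1 probe set, tested by itself in limma, changed by -0.0355 (adjusted p = 0.89). For Col1a2 the other probe set, tested in the same way, changed by -0.39 in wild type cells at time 48 (adjusted p = 0.041). The brightest Col1a2 probe set changed by -0.22 and did not pass. The PKBa-/- values of the brightest Col1a1 probe set were 12900, 11183, 11980 and 12359 at time 0 and 12263, 12823, 12543 and 13433 at time 48. Col5a2 in wild type cells read 6967, 6938, 6650 and 7177 at time 0 and 5080, 5178, 4830 and 5191 at time 48, a change of -0.45 ± 0.11 (adjusted p = 0.03), and in PKBa-/- cells 6774, 6391, 6662 and 5419 at time 0 and 6168, 6540, 6724 and 6885 at time 48. As the mean of its probe sets the wild type change was not called (-0.28, adjusted p = 0.35, the highest of its alternatives, which went down to 5.6e-06). With only times 0 and 48 of wild type in the fit none of the 24 passed in limma, and 4 had an unadjusted p under 0.05. The share of all genes in that fit is not given.

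**Figure D4:**
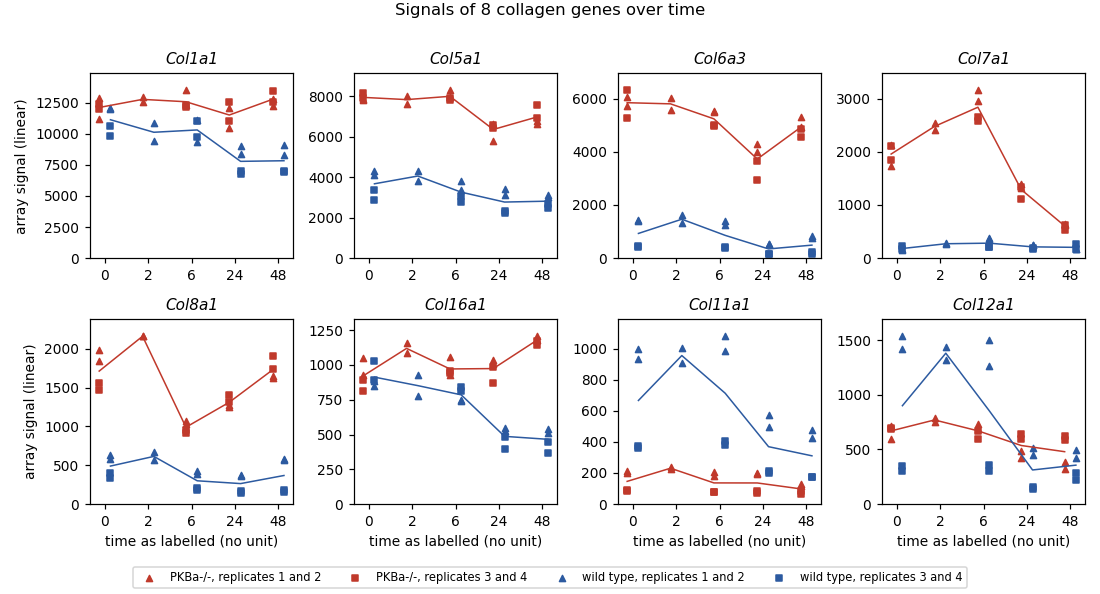
Array signals (linear scale, each panel with its own axis from 0) of 8 collagen genes at the labelled times, evenly spaced and without a unit; red is PKBa-/- and blue wild type, triangles are replicates 1 and 2, squares replicates 3 and 4, and lines join group means. Col7a1 of PKBa-/- declines after time 6 to 537 to 634 at time 48, Col16a1 of wild type declines to 370 to 536, and wild type Col6a3, Col8a1, Col11a1 and Col12a1 show replicates 1 and 2 above replicates 3 and 4. The means at time 2 hold replicates 1 and 2 only.

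By the F test over the 4 later times, 3 of 24 collagen genes changed in PKBa-/- cells (25.1% of all genes), Col7a1, Col4a2 and Col4a5 (adjusted p of 1.8e-04, 0.0022 and 0.01), and Col4a1 had an adjusted p of 0.051. In wild type cells 2 of 24 did (19.9% of all genes), Col16a1 (adjusted p = 0.0019) and Col1a1 (adjusted p = 0.039). The call of Col1a1 ended when any of 5 arrays was left out (wild type time 6 replicate 1, time 24 replicate 2, time 48 replicate 2 or time 0 replicate 4, or PKBa-/- time 24 replicate 2; adjusted p up to 0.06) and with the wild type arrays alone in the fit (0.18), and over all alternatives its adjusted p ran from 7.4e-06 to 0.18. These tests treat the pair averages of a replicate set as independent between times, although their estimated correlation within a set and genotype was 0.50. With a block for replicate set within genotype, 12 of 24 passed in PKBa-/- cells (50%, where 56.5% of all genes did) and 11 in wild type cells (45.8%, where 53.4% did). Among those added in wild type were Col6a3 (adjusted p = 5e-07) and Col11a1 (1.2e-05). Wild type Col11a1 read 996, 934, 375 and 364 at time 0 and 475, 424, 173 and 171 at time 48, lower in each replicate set, a change of -1.01 ± 0.12 in that fit. At time 2 none of the 24 passed in either genotype in limma (3.40% of all genes in PKBa-/- and 2.73% in wild type). Time 2 had replicates 1 and 2 only, so these changes, which the F tests include, also hold the difference between replicate sets. Wild type Col12a1 averaged 899 at time 0 and 1379 at time 2. Its replicates 1 and 2 read 1415 and 1536 at time 0 and 1321 and 1437 at time 2. The counts at time 2 at an unadjusted p under 0.05 were 1 in PKBa-/- and 0 in wild type, and with the 36 arrays as replicates 1 passed in each.

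Some collagen genes differed between replicate sets of 1 genotype by as much as others did between genotypes. The mean of replicates 1 and 2 minus that of replicates 3 and 4 was 1.03 for Col5a3 in PKBa-/- cells on the log2 scale. It was the 1 collagen gene of 24 (4.17%) with a difference over 1 between the sets in that genotype, where 8 of all 7436 genes (0.108%) had one. In wild type cells the same quantity was 1.69 for Col6a3, 1.60 for Col12a1, 1.28 for Col11a1 and 1.09 for Col8a1. These were 4 of the 24 collagen genes, 16.7%, where 97 of the 7436 genes, 1.30%, had a difference over 1. Col12a1 in PKBa-/- cells had a median of 641 over the 10 arrays of replicates 1 and 2 and 634 over the 8 arrays of replicates 3 and 4, against 1292 and 292 in wild type cells. For Col6a3 these medians were 5501 and 4898 in PKBa-/- cells, against 1285 and 304 in wild type cells. The genotype difference of Col6a3 was accordingly 2.31 within replicates 1 and 2, with 3.93 within replicates 3 and 4, and that of Col8a1 was 1.57 and 2.54. The averaged difference had the same sign in both sets for 23 of the 24 genes, all but Col12a1. What the sets stand for (cultures, cell lines or dates) no source used here says.

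Genes that make collagen were read from a list of enzymes, chaperones and proteases of the collagen pathway, 20 of which were measured and 17 tested. Averaged over the times, 11 of the 17 were higher in PKBa-/- cells (26.5% of all genes tested), 2 were lower (20.9%) and 4 did not pass, and the median difference was 0.52, against 0.03 over all genes tested. Pcolce, which speeds the trimming of the end of fibrillar collagens, had 5299 to 7826 (median 6033) in PKBa-/- arrays and 962 to 3980 (median 2544) in wild type arrays, a difference of 1.32 ± 0.17 (adjusted p = 4.3e-05). Bmp1, the protease that it assists, had 1380 to 2105 (median 1622) in PKBa-/- arrays and 650 to 1043 (median 838) in wild type arrays (0.92 ± 0.08). Plod3, which modifies lysine in collagen, was also higher in PKBa-/- cells, with 2142 to 3239 (median 2543) in PKBa-/- arrays and 1198 to 1878 (median 1469) in wild type arrays (0.80 ± 0.06). These ranges did not overlap between the genotypes for any of the 3 genes.

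Plod2, which hydroxylates the lysines at the ends of the chains, stood on the other side: it had 513 to 1798 (median 1156) in PKBa-/- arrays and 3183 to 5540 (median 4545) in wild type arrays, -1.94 ± 0.08 (adjusted p = 7.9e-10). Its signal in PKBa-/- cells rose over time by 1.53 ± 0.16 at time 48 (adjusted p = 1.1e-04), and the wild type change was 0.26 (adjusted p = 0.39), a difference between the genotypes of 1.28 ± 0.22 (adjusted p = 0.013). P4ha1, a subunit of the prolyl hydroxylase, was the other lower gene (-0.47 ± 0.10), while P4ha2, which encodes the alternative subunit, was higher (0.60 ± 0.16). Pcolce2 fell by time 48 in both genotypes, by -0.65 in PKBa-/- cells (adjusted p = 0.026) and -0.81 in wild type cells (adjusted p = 0.011). At time 48, 12 of the 17 were higher (12.4% of all genes tested) and 1 was lower (10.9%) in PKBa-/- cells. Serpinh1, the chaperone of procollagen, had 4656 to 7029 (median 6007) in PKBa-/- arrays and 3921 to 7380 (median 5201) in wild type arrays and did not pass (0.17 ± 0.08).

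**Figure D5:**
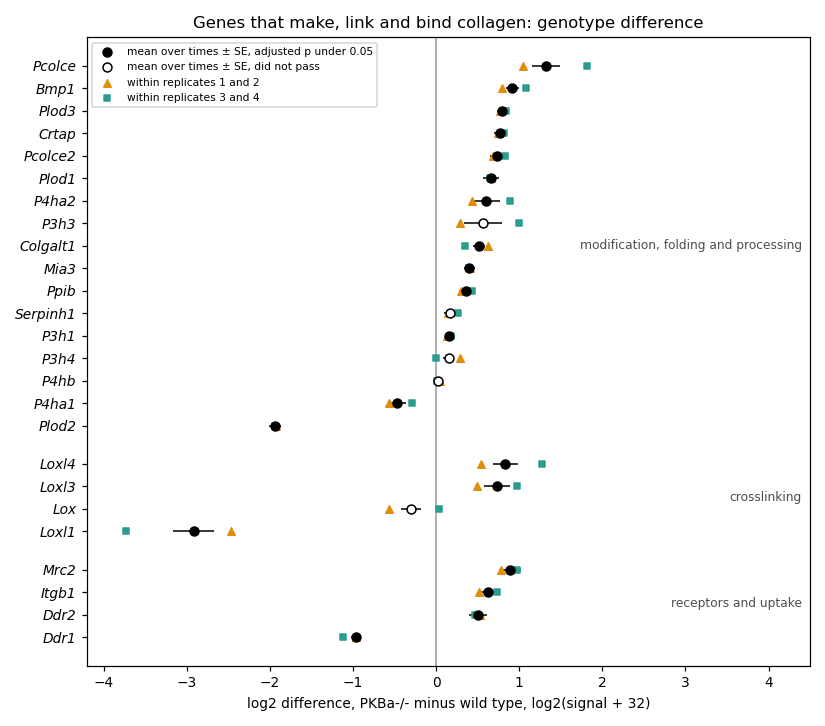
Difference between PKBa-/- and wild type averaged over the 5 times, on the log2(signal + 32) scale, for 25 tested genes that modify and process, crosslink or bind collagen; circles are estimates with SE (filled where adjusted p was under 0.05), triangles and squares the values within the replicate sets. Loxl1, Plod2, Ddr1 and P4ha1 lie to the left of 0 among those that passed.

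The 4 lysyl oxidase genes measured, whose enzymes crosslink collagen and elastin, differed in direction. Loxl1 had 135 to 675 (median 402) in PKBa-/- arrays and 2053 to 4759 (median 2847) in wild type arrays, -2.92 ± 0.24 (adjusted p = 9.7e-07). Loxl4 (0.83 ± 0.15) and Loxl3 (0.73 ± 0.16) were higher, and Lox, at 5173 to 7714 (median 6085) in PKBa-/- arrays and 5111 to 9660 (median 8164) in wild type arrays, did not pass (-0.31 ± 0.12). Lox was -0.57 within replicates 1 and 2 and 0.04 within replicates 3 and 4. Of 6 collagen receptors and uptake genes measured, 4 were tested and all 4 passed, where 47.4% of all genes tested did. Ddr1, a receptor tyrosine kinase for collagen found mainly in epithelial cells, was lower (-0.97 ± 0.05, adjusted p = 2e-08), with 282 to 603 (median 464) in PKBa-/- arrays and 603 to 1475 (median 1003) in wild type arrays. At time 6 Ddr1 fell in wild type cells (-0.60, adjusted p = 0.005), with -0.31 in PKBa-/- cells (adjusted p = 0.07). At time 48 it had changed by -0.76 in PKBa-/- cells (adjusted p = 0.0012) and by 0.46 in wild type cells (adjusted p = 0.027), and these changes from time 0 differed by -1.22 ± 0.15 (adjusted p = 0.0019). Its relative Ddr2, which is the form of connective tissue cells, was higher (0.51 ± 0.11), as were Mrc2, the receptor that takes up cleaved collagen (0.88 ± 0.13), and Itgb1, the beta chain of the collagen-binding integrins (0.62 ± 0.08).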

How the data were processed

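Biotinylated cRNA made from about 8 ug of total RNA was hybridized to Affymetrix arrays, per the labels. The deposited table gives an intensity for each probe set on each array, linear, between 8.62 and 19337; the sources used here do not say how the authors summarised or scaled it. Precision is limited by the number of arrays. Of 22690 probe sets, the 20380 annotated to 1 gene were used, and the brightest probe set stood for each of 12393 genes. The log2 of signal + 32 was computed from the deposited values. The lowest 40% of genes by mean log2 were set aside, leaving 7436 to test, and the limit corresponds to a signal of about 123.

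Arrays of replicates 1 and 2, and of replicates 3 and 4, of a group were averaged, and 10 group means were fitted to the 18 averages with limma 3.58.1 in R 4.3.3 (residual degrees of freedom 8, prior 4.23). The moderated tests are two-sided, with Benjamini-Hochberg adjustment in each contrast over the tested genes. The procedure was tested on simulated data. Same-numbered arrays had residual correlations of 0.0359 to 0.72 between times of a genotype and of -0.215 to 0.439 between genotypes, so the numbers were not taken to pair arrays.

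The collagen genes, the other lists and the design were chosen with earlier results of these data known, and the averaging of pairs rests on one of them. Collagen genes are given by level throughout; array values or ranges were set for the 8 genes of highest mean signal, the 4 highest and 4 lowest averaged differences that passed, the 3 highest and 3 lowest changes at time 48 in each genotype that passed and the 4 smallest interaction p-values. From the other lists, the rule took the 4 largest averaged differences and the 2 largest changes at time 48 in each genotype that passed; Serpinh1, Lox, P4ha1, P4ha2 and the markers named were chosen after their values were seen. Alternatives were other filters, other offsets, all probe sets of a gene averaged or each by itself, quantile normalization, an intensity trend, arrays as replicates, a random pair effect, blocks for replicate set or number, each set alone, the compared groups alone, time 2 left out, and leaving out each array. Promoter windows and gene positions are from RefSeq tables of build GRCm38.p6, which held a window for 27 of the 36 genes.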

Additional observations from a re-analysis of the deposited data

Results flagged for a closer look

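Of 192 groups of 4 arrays of the tested collagen genes, 5 held 1 array far from the other 3; chance alone gives about 1 group in 20. Col1a1 in PKBa-/- cells at time 6 had 1 array at 13494, with the others at 12164 to 12307. Col7a1 had 1 high wild type array at time 48, at 273 with the others at 180 to 181, and 1 low PKBa-/- array at time 48, at 537 with the others at 625 to 634. Col4a5 in PKBa-/- cells at time 24 had 1 array at 282, with the others at 340 to 348, and Col20a1 in wild type cells at time 24 had 1 array at 214, with the others at 174 to 181.

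The course over time differed between the genotypes for 2 collagen genes by limma's F test, Col7a1 (adjusted p = 0.024) and Col16a1 (adjusted p = 0.018). At time 48 the change of Col7a1 in PKBa-/- cells minus that in wild type cells was -1.77, and that of Col16a1 was 1.28, on the log2 scale.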

How the results depend on the processing

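The counts of collagen genes that passed (of 24: 18 for the averaged difference, 7 at time 0, 14 at time 48, 3 and 2 by the F test over time in PKBa-/- and wild type cells, 4 and 3 at time 48 against time 0 in PKBa-/- and wild type cells, and 2 for the interaction) stayed within 1.5 times under other offsets and filters, quantile normalization, an intensity trend and time 2 left out. With the 36 arrays as replicates, 16 passed at time 0, 10 and 14 by the F test in PKBa-/- and wild type, 9 and 7 at time 48 against time 0, and 6 for the interaction; with a random pair effect, 11 at time 0, 5 and 9 by the F test, and 3 for the interaction. No pairing by number was taken, and the replicate block for replicate set gave 13 at time 0 and 5 and 6 by the F test in PKBa-/- and wild type. A replicate block for replicate set within genotype gave 12 and 11 by the F test, 10 and 11 at time 48 against time 0, and 5 for the interaction, and a replicate block for replicate number on the 36 arrays gave 17 at time 0, 12 and 16 by the F test, 10 and 12 at time 48 against time 0, and 8 for the interaction. An array correlated best with its own number in 51 of 96 cases. The random block for replicate set gave 15 for the averaged difference and 11 at time 0. Within replicates 1 and 2 alone, where arrays of a pair stand as replicates, 19 passed at time 0, 17 and 21 by the F test, 15 and 14 at time 48 against time 0, and 17 for the interaction; within replicates 3 and 4 alone, 18, 13 and 14, 9 and 12, and 13 did. By the mean of all probe sets, 5 and 3 of 21 passed the F test in PKBa-/- and wild type and 2 of 21 in wild type at time 48 against time 0. Each probe set by itself gave 29 probe sets of 37 for the averaged difference, 12 at time 0, 20 at time 48, 7 and 5 by the F test, and 7 at time 48 against time 0 in PKBa-/- cells. The compared groups alone gave 9 at time 48, 6 and 1 by the F test, and 7 and 0 at time 48 against time 0. The sign turned for Col12a1 within replicates 1 and 2 (-0.66; adjusted p of 9e-15 to 0.91 over its alternatives) and for Col5a2 by the mean of its probe sets (-0.040). Leaving out 1 array at a time gave 18 to 19 for the averaged difference, 6 to 8 at time 0, 12 to 14 at time 48, 3 to 4 and 1 to 3 by the F test in PKBa-/- and wild type, 4 to 4 and 1 to 3 at time 48 against time 0, and 2 to 2 for the interaction. The wild type F count was 1 without wild type time 6 replicate 1, time 24 replicate 2, time 48 replicate 2 or time 0 replicate 4, or without PKBa-/- time 24 replicate 2, and the wild type count at time 48 was 1 without PKBa-/- time 0 replicate 3. The share of all genes under the same setting is not given beside these counts, so they show only how the calls moved. Except where the number of samples or features differs by construction, the cause was not tested.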
